A study of Homo sapiens with 5 samples.

Results

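The ERBB receptors and the ligands and inhibitor that act on them were followed in SW620, a colon carcinoma line derived from a lymph node metastasis. The group holds 10 genes, picked by symbol from the 25343 gene rows of the table, whatever their values. They are 3 receptor genes (EGFR, ERBB2 and ERBB3), 6 genes of the EGF ligand family (AREG, EREG, TGFA, HBEGF, BTC and EPGN) and the feedback inhibitor gene ERRFI1. All 10 had a row, and 8 passed the filter on low counts, while BTC and EPGN did not. mRNA was sequenced in 5 libraries, 3 called neg (replicates 1, 2 and 3) and 2 called pos (replicates 1 and 3). All libraries carry the genotype tet-MUC1shRNA, a tetracycline-inducible short hairpin against the mucin gene MUC1. The cells received either vehicle or doxycycline, the drug that switches such hairpins on, but the labels do not say which of the names neg and pos stands for which. The labels speak of triplicate cultures. No library with doxycycline and a control hairpin was analysed here, so hairpin and drug cannot be told apart. Nothing says that the libraries of a group came from separate experiments, so p-values measure only the spread between these libraries.

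The ERBB receptors are tyrosine kinases of the cell surface that pair up when a ligand binds. EGFR binds amphiregulin (AREG), epiregulin (EREG), TGF-alpha (TGFA), heparin-binding EGF (HBEGF), betacellulin (BTC) and epigen (EPGN), ERBB2 has no known ligand and serves as a partner, and ERBB3 binds neuregulins and has a weak kinase of its own. The ligands are made as membrane-bound precursors and are cut free by metalloproteases, chiefly ADAM17. Signals run through RAS to ERK and through PI3K to AKT, and ERK in turn induces ligand genes and brakes such as ERRFI1 (MIG6), which binds the active kinase domain and shuts it down. In the colon AREG and EREG are read as signs of EGFR pathway activity.

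Depth was 10888704 to 14137678 counted reads per library. Fewer genes had a read in pos, 14452 and 15530 in replicates 1 and 3, against 16832 to 17054 in neg. Library size after scaling by a trimmed mean over genes was 12358600 and 9485160 in pos replicates 1 and 3. In neg it was 12441600 to 15907100. The part of this in the low counts of some members in pos was not tested. MUC1, the target of the hairpin, had 176, 252 and 218 reads in neg replicates 1, 2 and 3 and 27 and 13 in pos replicates 1 and 3. The pos libraries differed from neg, and from each other, by transcript length. With tested genes cut into 5 equal groups by length, the shortest lay a median of 1.18 (log2) above the neg mean in pos replicate 3 and 0.36 above it in pos replicate 1, and the longest stood at -1.25 and -0.26. Results on the members, and counts of calls in the pathway lists, are therefore also given with each library's length trend removed. Of 12 colon and epithelial markers, EPCAM, KRT8, KRT18, KRT19 and VIL1 had at least 1358 reads in each library, CEACAM5 had 20 to 78, and CDX1, LGALS4, GPA33 and CDH17 had at most 31. The other two were called in opposite directions, CDX2 higher in pos (log2 fold change 2.18, edgeR adjusted p = 0.0337) and CDH1 lower (-1.68, adjusted p = 0.0434). Of 6 leukocyte markers, 4 had 0 reads throughout, PTPRC, CD3E and TYROBP among them, while LCP1 (3865 to 7145 reads) and CD68 (443 to 759) were present and not called. Of 6 fibroblast markers, COL1A2 and COL3A1 had 0 reads and DCN at most 2, LUM and PDGFRB were not called, and COL1A1 fell (-1.36, adjusted p = 0.0340). The summed fibroblast list stood at 25.2 to 29.1 CPM in neg and 13.5 to 18.7 in pos. Of 5 endothelial markers, TEK had 0 reads, PECAM1, CDH5 and KDR had at most 8, and VWF was not called (-2.04, adjusted p = 0.0982). The part of these markers in the results was not tested. In bulk RNA, fewer cells that express a gene and less RNA of it per cell cannot be told apart.

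Of the ligand genes, 4 lie within 486 kb of chromosome 4, in the order EPGN, EREG, AREG and BTC (GRCh38, GENCODE 44). EREG lies from 74365145 to 74388749 and AREG from 74445136 to 74455005, both on the plus strand. TGFA lies on chromosome 2 (70447284 to 70554193, minus strand) and HBEGF on chromosome 5 (140332843 to 140346603, minus strand). ERRFI1 lies on chromosome 1 (8004404 to 8026309, minus strand). EGFR is on chromosome 7 (55019017 to 55211628), ERBB2 on chromosome 17 (39687914 to 39730426) and ERBB3 on chromosome 12 (56076799 to 56103505), all 3 on the plus strand. The 250 bases before the start site are shown for the members with the largest differences between groups and for EPGN, the silent neighbour of EREG and AREG. They come from RefSeq (GRCh38.p14), whose table holds a window for 9 of the 10 members, all but ERBB3. The bases are written 5′ to 3′ on the gene's strand. The windows are chr4:74308220-74308469 for EPGN, chr4:74364895-74365144 for EREG, chr4:74444886-74445135 for AREG, chr5:140346604-140346853 for HBEGF and chr1:8026310-8026559 for ERRFI1. Capitals mark letters that match, on either strand, a TATA box, a cyclic AMP response element, an AP-1 site, a CCAAT box or a GC box, each spelled out after the sequences.
EPGN: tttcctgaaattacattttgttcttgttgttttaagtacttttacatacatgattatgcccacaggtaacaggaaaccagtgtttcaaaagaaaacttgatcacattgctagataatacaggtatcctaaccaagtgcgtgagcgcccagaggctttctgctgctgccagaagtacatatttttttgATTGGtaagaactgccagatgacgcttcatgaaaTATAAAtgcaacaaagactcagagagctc
EREG: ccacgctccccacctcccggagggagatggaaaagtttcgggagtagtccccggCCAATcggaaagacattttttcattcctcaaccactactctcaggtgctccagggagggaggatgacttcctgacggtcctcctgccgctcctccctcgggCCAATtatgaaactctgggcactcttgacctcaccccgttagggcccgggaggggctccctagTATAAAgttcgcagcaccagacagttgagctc
AREG: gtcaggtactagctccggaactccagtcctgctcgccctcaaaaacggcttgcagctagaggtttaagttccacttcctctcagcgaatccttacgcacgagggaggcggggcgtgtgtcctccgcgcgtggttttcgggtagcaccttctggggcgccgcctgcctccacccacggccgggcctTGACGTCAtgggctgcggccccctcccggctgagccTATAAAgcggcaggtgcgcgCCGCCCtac
HBEGF: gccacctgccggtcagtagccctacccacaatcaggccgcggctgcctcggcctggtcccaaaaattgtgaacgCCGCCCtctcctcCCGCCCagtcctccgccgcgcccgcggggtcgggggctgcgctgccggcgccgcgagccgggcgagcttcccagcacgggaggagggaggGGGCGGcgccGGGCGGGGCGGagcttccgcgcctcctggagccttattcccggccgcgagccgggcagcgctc
ERRFI1: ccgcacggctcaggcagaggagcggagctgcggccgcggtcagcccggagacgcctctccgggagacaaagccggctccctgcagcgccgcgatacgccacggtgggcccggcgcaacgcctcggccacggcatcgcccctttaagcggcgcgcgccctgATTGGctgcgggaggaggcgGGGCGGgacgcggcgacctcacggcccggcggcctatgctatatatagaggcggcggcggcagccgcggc
EPGN, EREG and AREG each held the TATA box letters TATAAA, beginning 29, 32 and 29 bases before the start, where 10.7% of all 35116 windows held it on either strand. AREG alone of the 9 members with a window held the cyclic AMP response element TGACGTCA, beginning 65 bases before the start, against 1.65% of all windows. The CCAAT box stood at 196 and 95 bases before the start of EREG and, on the other strand, at 90 and 63 bases before those of ERRFI1 and EPGN (32.0% of all windows). HBEGF held the GC box GGGCGG at 5 places, 2 of them sharing a base, and ERRFI1 and AREG at 1 each (42.6% of all windows). The AP-1 letters TGANTCA were in none of these 5 windows, against 6.57% of all. These matches are letters in the window and not sites shown to be used.

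In neg, the receptor transcripts were mostly ERBB3 and the ligand transcripts mostly TGFA and HBEGF. Levels of different genes were compared as RPKM, which is CPM (reads scaled to library size by TMM, a trimmed mean over genes) per kilobase of the canonical transcript. ERBB3 stood at 60.8 ± 7.09 RPKM (SD, n = 3 neg, as below), ERBB2 at 6.90 ± 0.554 and EGFR at 0.824 ± 0.114, without overlap between neighbours in this order. Among the ligands TGFA stood at 31.4 ± 4.31 RPKM, HBEGF at 17.7 ± 1.05, EREG at 4.61 ± 0.545, AREG at 1.96 ± 0.234 and BTC at 0.14 ± 0.0185, again with each neighbour below the range of the one before. EPGN had 0 reads in all 5 libraries, and 3 counts would equal 0.189 to 0.316 CPM. ERRFI1 was the most abundant member at 203 ± 2.30 RPKM, above 98.5% of the 17335 genes with a read in neg and a transcript length, against 30.7% for EGFR.

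In pos the order of the receptors was the same, with ERBB3 at 73.5 ± 13.7 RPKM (SD, n = 2 pos), ERBB2 at 9.01 ± 1.92 and EGFR at 0.357 ± 0.234. ERRFI1, at 47.5 ± 19.1 RPKM, stood below ERBB3 in both pos libraries and above it in all 3 neg libraries. TGFA (15.8 ± 3.52 RPKM) and HBEGF (6.24 ± 2.18) still led the ligands, while EREG (0.616 ± 0.741) and AREG (0.214 ± 0.302) overlapped.

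**Figure D1:**
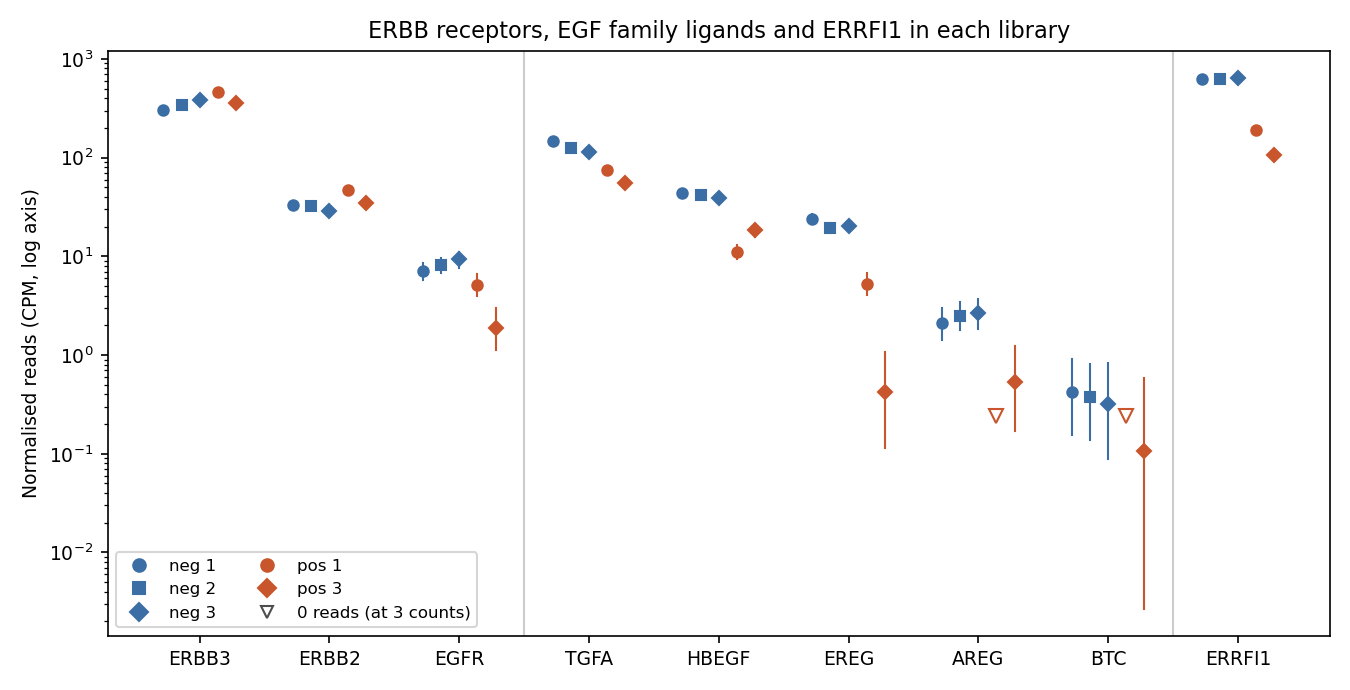
Normalised reads (CPM, log axis) of 9 members in each library, with neg in blue and pos in orange, the symbol giving the replicate. Bars are exact Poisson 95% intervals (counting error only), open triangles mark 0 reads at the level of 3 counts, and EPGN, with 0 reads throughout, is not drawn. ERRFI1, TGFA, HBEGF, EREG, AREG, BTC and EGFR lie lower in both pos libraries than in all 3 neg libraries, AREG and BTC on few reads. ERBB2 and ERBB3 do not.

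In pos against neg, the inhibitor and the ligand HBEGF fell, the other tested ligands lay lower without passing the threshold, and ERBB2 and ERBB3 did not lie lower. Of 8 members tested, 2 fell, ERRFI1 and HBEGF, and none rose, where 4.13% of all 13604 tested genes were called lower and 5.06% higher (9.20% in either direction). Calls are from edgeR's quasi-likelihood test at 0.05, with p adjusted over all tested genes by the Benjamini-Hochberg method. DESeq2 called 5 of the members lower, adding TGFA, EREG and AREG, against a background of 9.27%. Both pos libraries lay below all 3 neg libraries for 6 of the 8, ERRFI1, HBEGF, TGFA, EREG, AREG and EGFR, where 29.3% of all tested genes did so. They lay above for ERBB2 (26.7% of all tested genes) and overlapped for ERBB3. The median log2 fold change of the 8 was -1.35, against -0.05 over all tested genes.

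ERRFI1, the inhibitor, had 9019, 9902 and 7921 reads in neg replicates 1, 2 and 3 and 2334 and 999 in pos replicates 1 and 3. In CPM these were 631, 622 and 637 against 189 and 105. The neg libraries were nearly level and both pos libraries far below, with pos replicate 3 the lower. ERRFI1 fell 4.28-fold (log2 fold change -2.10, SE 0.30, edgeR adjusted p = 0.0326). The size was much the same in edgeR without the length trend (-2.06, adjusted p = 0.0110). Its 3097 nt transcript is close to the median of tested genes, 3233.5 nt. Without neg replicate 1, 2 or 3 the edgeR adjusted p was 0.178, 0.217 and 0.212 at log2 fold changes of -2.09 to -2.11, and no tested gene passed in those fits, with 0 of 13420 to 13474 genes called.

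Among the ligands, HBEGF, which also anchors to heparan sulfate, had 633, 664 and 489 reads in neg and 137 and 174 in pos replicates 1 and 3. Its level was 44.3, 41.7 and 39.3 CPM in neg against 11.1 and 18.3 in pos, so the groups were well apart and pos replicate 1 was the lower. HBEGF fell 2.84-fold (log2 fold change -1.51, SE 0.28, edgeR adjusted p = 0.0390), and by 1.74 on the log2 scale without the length trend (adjusted p = 0.0101). Its adjusted p without each neg library in turn was also 0.178, 0.217 and 0.212.

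TGFA, the main ligand transcript of these cells, had 2126, 1993 and 1416 reads in neg and 932 and 521 in pos. Its level was 149, 125 and 114 CPM in neg against 75.4 and 54.9 in pos, with no overlap. The log2 fold change was -0.99 (SE 0.24, 95% interval -1.57 to -0.40), with an edgeR adjusted p of 0.0545 that missed the threshold. It passed in DESeq2 (-0.98, adjusted p = 0.00667) and in edgeR without the length trend (-0.72, adjusted p = 0.0437).

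EREG, another EGFR ligand, was far apart in the pos libraries. It had 345, 308 and 253 reads in neg, 65 in pos replicate 1 and 4 in pos replicate 3. Its level was 24.1, 19.4 and 20.3 CPM in neg, 5.26 in pos replicate 1 and 0.422 in pos replicate 3, the last with a Poisson 95% interval of 0.115 to 1.08 that lies below the 4.06 to 6.70 of pos replicate 1. Both pos libraries were below neg, at 24.7% and 1.98% of the neg mean. With this spread the log2 fold change was -2.85 (SE 0.81) at an edgeR adjusted p of 0.0716. The adjusted p was 0.000473 in DESeq2 (-2.90) and 0.0406 once the length trend was taken out (-2.59). Leaving out pos replicate 3 gave -2.04, and leaving out pos replicate 1 gave -5.58.

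AREG, the neighbour of EREG, was low throughout. It had 30, 40 and 33 reads in neg, 0 in pos replicate 1 and 5 in pos replicate 3. Its level was 2.10, 2.51 and 2.65 CPM in neg, 0.527 in pos replicate 3 and 0 in pos replicate 1, where a count of 0 allows up to 0.243 CPM (3 counts). The log2 fold change was -3.30 (SE 0.90) at an edgeR adjusted p of 0.0667, with 0.00693 in DESeq2 (-3.28) and 0.0257 in edgeR without the length trend (-4.10). Leaving out pos replicate 1 gave -2.13, and leaving out pos replicate 3 gave -8.07, a value that is no bound because the lone pos library then has 0 reads. Here the order of the pos libraries was the reverse of that in EREG, but it lay within counting error. Their Poisson 95% intervals overlapped, at 0 to 0.298 CPM in pos replicate 1 and 0.171 to 1.23 in pos replicate 3. The ratio of EREG to AREG reads was 11.5, 7.70 and 7.67 in neg, 0.80 in pos replicate 3 and at least 21.7 in pos replicate 1, where the 0 reads of AREG were set to 3. The ratio thus lay below neg in one pos library and above it in the other. The hg19 annotation holds a near-identical AREG copy, AREGB, and how reads of the pair were counted was not tested. BTC had 6, 6 and 4 reads in neg and 0 and 1 in pos, too few for the test. The pooled neg to pos ratio of BTC was 8.19, with an exact 95% interval of 1.27 to 344 that covers counting error only.

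Summed over the 6 ligands, the level was 62.0, 54.5 and 51.0 RPKM in neg and 24.2 and 21.7 in pos replicates 1 and 3. The pos libraries were thus alike in the sum and unlike in its parts. TGFA made up 54.2% to 58.3% of ligand reads per length in neg, 75.8% in pos replicate 1 and 61.5% in pos replicate 3. HBEGF made up 30.3% to 32.7% in neg, 19.5% in pos replicate 1 and 35.9% in pos replicate 3. EREG made up 7.70% to 8.64% in neg, 4.72% in pos replicate 1 and 0.421% in pos replicate 3. The depth of each library cancels in these shares, but its length trend does not.

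**Figure D2:**
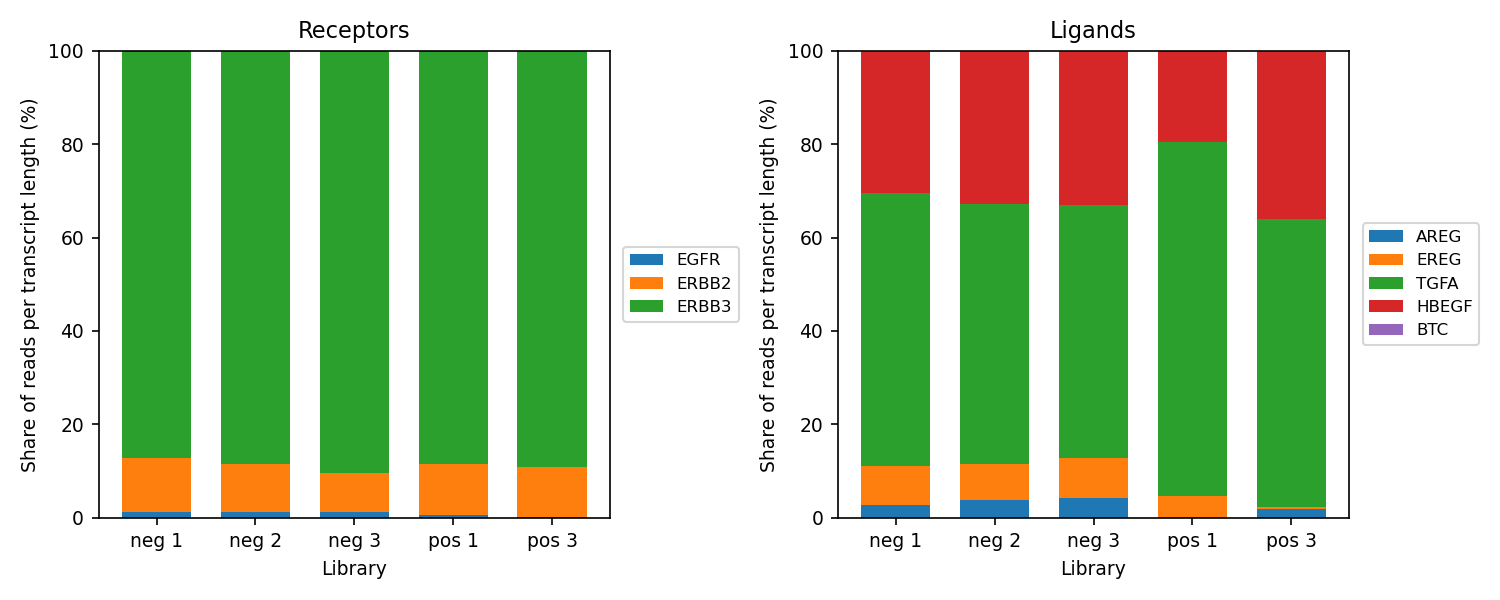
Share of reads per transcript length (%) of each receptor (left) and each ligand (right) in the 5 libraries, stacked to 100%, 1 bar per library. ERBB3 takes 87.1% to 90.4% of the receptor bar in every library. The EREG part of the ligand bar is 7.70% to 8.64% in neg, 4.72% in pos replicate 1 and 0.421% (4 reads) in pos replicate 3.

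ERBB2 and ERBB3 were not lower in pos. ERBB3, the neuregulin receptor, had 4327, 5414 and 4754 reads in neg and 5776 and 3401 in pos, which are 303, 340 and 382 CPM against 467 and 359. The groups overlapped. Its log2 fold change was 0.27 (SE 0.22, 95% interval -0.26 to 0.81, edgeR adjusted p = 0.392). When libraries were scaled by their size alone it was -0.08, and the median over all tested genes moved from -0.05 to -0.41, so that ERBB3 stayed above it. ERBB2, the partner without a ligand, had 474, 519 and 355 reads in neg and 584 and 331 in pos. Its level was 33.1, 32.6 and 28.5 CPM in neg against 47.3 and 34.9 in pos, just clear of neg in pos replicate 3. The log2 fold change of ERBB2 was 0.39 (SE 0.22, 95% interval -0.15 to 0.92, adjusted p = 0.251). Both are long transcripts (5615 nt for ERBB3 and 4557 nt for ERBB2), of the kind under-represented in pos replicate 3. With the length trend removed both were higher in pos and passed the threshold, ERBB3 at 0.81 (SE 0.15, adjusted p = 0.0242) and ERBB2 at 0.74 (SE 0.16, adjusted p = 0.0348), as did ERRFI1, HBEGF, TGFA, EREG and AREG in the downward direction. In that fit 5 of the 8 members were called lower, against 6.67% of all tested genes, and 2 higher, against 7.39% (14.1% in either direction).

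EGFR, the receptor of the 6 ligands, was scarce. It had 101, 129 and 116 reads in neg, 64 in pos replicate 1 and 18 in pos replicate 3. These were 7.06, 8.11 and 9.32 CPM in neg against 5.18 and 1.90, with pos replicate 3 well below pos replicate 1. EGFR had a log2 fold change of -1.18 (SE 0.44, 95% interval -2.27 to -0.10), and the edgeR adjusted p of 0.124 missed the threshold. It was -2.05 without pos replicate 1 and -0.68 without pos replicate 3. EGFR has the longest transcript of the members, 9905 nt, and the length trend at that length was itself -0.87 between the groups. With the trend removed the log2 fold change was -0.46 (SE 0.23, adjusted p = 0.216). The antisense gene EGFR-AS1 within the locus had 0 reads in all libraries. ERBB2 overlaps PGAP3 and MIEN1 on the opposite strand, and the strand setting of the counting is not given in the sources used here.

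**Figure D3:**
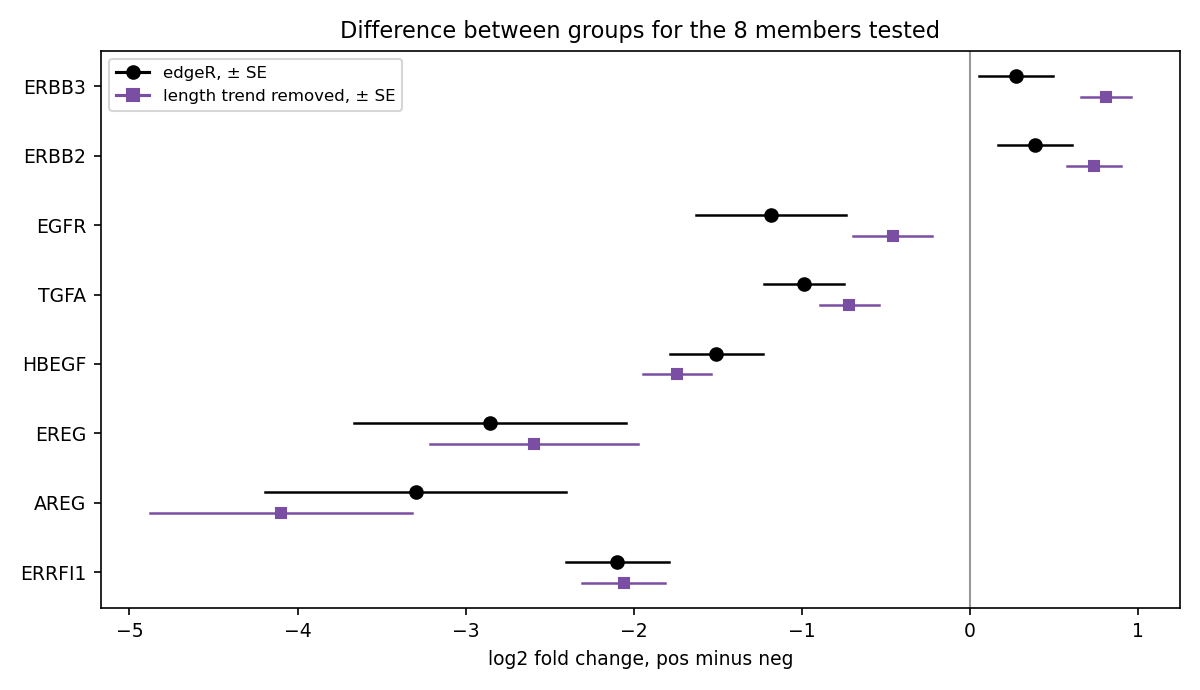
Log2 fold change of pos against neg for the 8 members tested, with bars of ± 1 SE, from the edgeR fit on all 5 libraries (black circles) and from the same fit with each library's length trend removed (purple squares). ERRFI1 and HBEGF lie near -2.10 and -1.51 in the first fit, while removal of the trend moves ERBB3 from 0.27 to 0.81 and EGFR from -1.18 to -0.46.

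Ratios of members within a library do not depend on how libraries are scaled, but they do depend on each library's length trend. That trend (log2) was -1.07 at the length of EGFR and -0.67 at that of ERBB3 in pos replicate 3. It was 0.05 and 0.04 in pos replicate 1, and 0.18 to 0.56 and 0.15 to 0.31 in neg. The ratio of ERBB3 to EGFR reads was 42.8, 42.0 and 41.0 in neg, 90.3 in pos replicate 1 and 189 in pos replicate 3. The ratio of ERBB3 to ERBB2 reads was 9.13, 10.4 and 13.4 in neg and 9.89 and 10.3 in pos, within the neg range. The ratio of ERRFI1 to ERBB3 reads was 2.08, 1.83 and 1.67 in neg and 0.404 and 0.294 in pos. The inhibitor was thus lower against the main receptor in both pos libraries, and the pair ERBB2 and ERBB3 kept its proportion. No test was run on these ratios. An exact permutation test of 2 libraries against 3 could not go below a two-sided p of 0.200.

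Other genes of the ERBB pathway, 87 in 6 lists written from general knowledge, lay closer to the median of all genes. Of 81 tested, 2 fell and 1 rose in edgeR, against the 4.13% lower and 5.06% higher of all tested genes, which hold for each list below. DESeq2 called 16 lower and 2 higher, against 9.27% and 11.5%, and edgeR with the length trend removed called 8 lower and 1 higher, against 6.67% and 7.39%. The list of remaining receptor and ligand genes also holds the co-receptor gene TDGF1. In it 3 of 7 were tested and none was called in edgeR or DESeq2, with 1 at an unadjusted p under 0.05 in edgeR. ERBB4 had 0, 1 and 1 reads in neg and 0 in pos, EGF had 0 throughout, and NRG1 and NRG3 had 1 read in 1 neg library each. NRG2 (63, 57 and 33 reads in neg, 20 and 17 in pos) had a log2 fold change of -1.06 (adjusted p = 0.102) and NRG4 (13, 25 and 24 in neg, 15 and 12 in pos) of -0.24 (adjusted p = 0.725). The EGF-like co-receptor gene TDGF1 had 193, 197 and 205 reads in neg and 117 and 101 in pos, at a log2 fold change of -0.49 (adjusted p = 0.192), or -0.85 without the length trend (adjusted p = 0.0625).

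Of the 6 tested genes for ligand shedding, 1 fell and none rose in edgeR, all 6 pointed down, and the median was -0.92. DESeq2 called 2 lower, against 9.27% of all tested genes. Without the length trend edgeR called 2 lower, against 6.67%, at a median of -0.82, and ADAM10 then pointed up (0.23). TIMP3, which encodes a secreted inhibitor of ADAM17 and other metalloproteases, had 805, 840 and 731 reads in neg and 133 and 68 in pos. Its level fell from 55.9 ± 2.99 CPM (SD, n = 3) to 8.97 ± 2.54 (SD, n = 2), a log2 fold change of -2.64 (SE 0.26, edgeR adjusted p = 0.0261). ADAM17 itself, named after its value was seen, had 146, 142 and 145 CPM in neg, 60.7 in pos replicate 1 and 19.5 in pos replicate 3. Its log2 fold change of -1.84 (SE 0.48) missed the threshold in edgeR (adjusted p = 0.0624) and passed in DESeq2 (adjusted p = 0.000598) and in edgeR without the length trend (-1.60, adjusted p = 0.0304). The gene for the sheddase and that for its inhibitor were thus both low in pos.

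Of 15 tested genes in the list of receptor restraint and turnover, 1 rose and none fell, at a median of -0.87. With the length trend removed the median was -0.18, and 1 rose and 1 fell, against 7.39% and 6.67% of all tested genes. DESeq2 called 1 higher and 4 lower, against 11.5% and 9.27%. The gene that rose, GRB7, encodes an adaptor that binds ERBB receptors and is no brake on them, and it lies just downstream of ERBB2 on chromosome 17. GRB7 had 33.8, 31.3 and 29.5 CPM in neg and 63.7 and 95.2 in pos (log2 fold change 1.33, SE 0.23, edgeR adjusted p = 0.0382). Without the length trend it was 1.06, and with libraries scaled by size alone it missed the threshold (0.90, edgeR adjusted p = 0.0578). LRIG1, a membrane protein that lowers ERBB receptor levels, was named after its value was seen. Its log2 fold change was -1.32 (SE 0.32, adjusted p = 0.0535), and it was -0.89 without the length trend (adjusted p = 0.0271).

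None of the 21 adaptor, RAS and kinase cascade genes and none of the 15 PI3K and AKT genes was called in the edgeR fit without length correction, at medians of -0.53 and -0.44. At an unadjusted p under 0.05 that fit held 3 of each list, all lower, against 15.5% of all tested genes lower and 19.1% higher (34.6% in either direction), and DESeq2 called 4 and 3, all lower, against 9.27%. In edgeR without the length trend their medians were -0.06 and 0.07, and 2 of the first list and 0 of the second were called, both lower. The median transcript lengths of the lists are 4746 and 7092 nt. The smallest p in the first list were those of the kinase gene MAP2K1 (log2 fold change -0.85, adjusted p = 0.0566) and the scaffold gene KSR1 (-2.05, adjusted p = 0.0748), which were the pair called without the length trend (-0.97, adjusted p = 0.0273, and -1.61, adjusted p = 0.0447). In the second list the kinase gene PDPK1 was at -1.23 (adjusted p = 0.0939).

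Among 21 genes that ERK signalling induces, 1 fell and none rose, at a median of -0.42. Both pos libraries lay below all neg libraries for 11 of the 21 and above for 4, against 29.3% and 26.7% of all tested genes. DESeq2 called 3 lower and 1 higher, against 9.27% and 11.5% of all tested genes. In edgeR without the length trend 3 were lower and 0 higher, against 6.67% and 7.39%, at a median of -0.14. DUSP5, a nuclear ERK phosphatase, had 76.1, 72.4 and 71.1 CPM in neg and 41.6 and 33.0 in pos (log2 fold change -0.97, SE 0.20, edgeR adjusted p = 0.0447, or 0.0643 with libraries scaled by size alone). The following genes of the same list were named after their values were seen. MYC, a growth-promoting transcription factor gene, and the potassium channel gene KCNN4 were lower past the threshold in edgeR without the length trend (-0.56, adjusted p = 0.0415, and -1.64, adjusted p = 0.0324) and missed it in the fit with it. DUSP6, the cytoplasmic ERK phosphatase, had 262, 280 and 302 CPM in neg and 308 and 244 in pos, with overlap between the groups. The immediate early gene EGR1 had a log2 fold change of 0.05 (adjusted p = 0.864). The feedback inhibitor genes SPRY4 and SPRY1 pointed opposite ways, at -0.93 (adjusted p = 0.0584) and 0.75 (adjusted p = 0.0751), neither past the threshold in edgeR, while DESeq2 called both (adjusted p = 0.0115 and 0.0470).

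**Figure D4:**
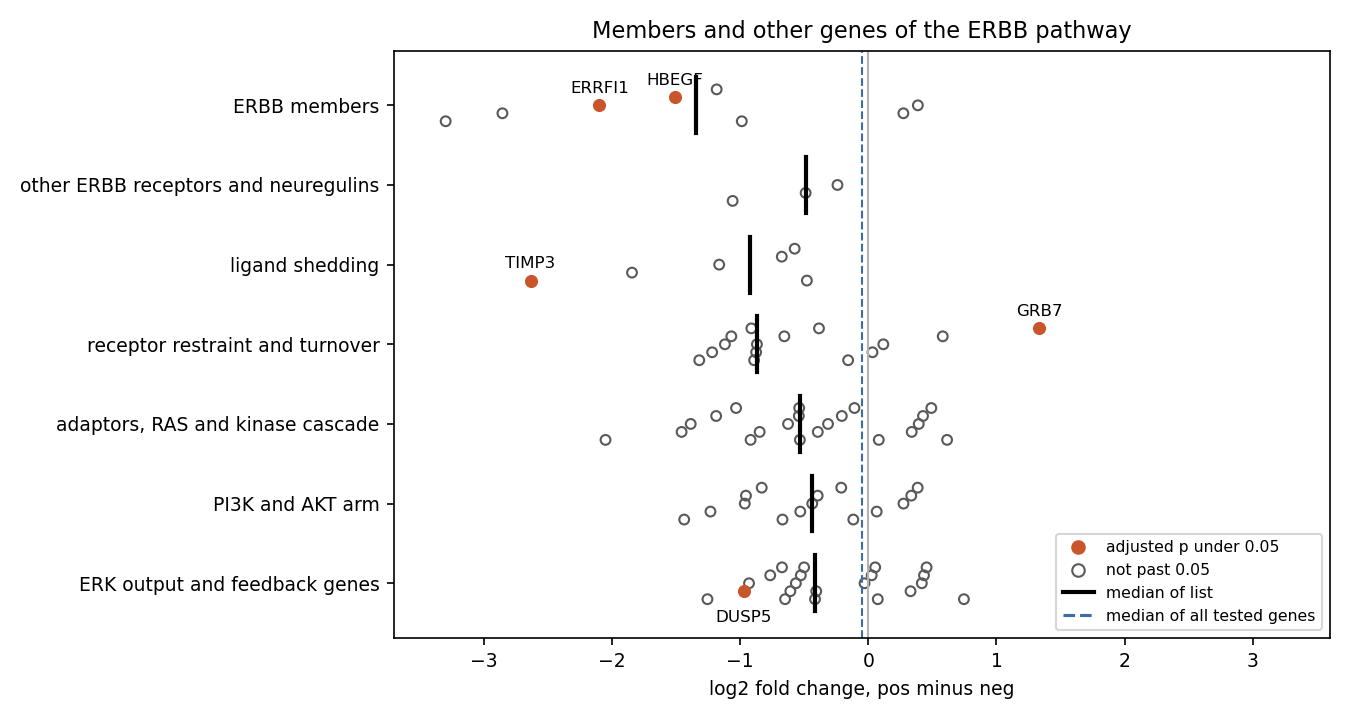
Log2 fold change of pos against neg for each tested gene of the ERBB members and of 6 further pathway lists, 1 point per gene, filled where the edgeR adjusted p was under 0.05, with the list's median as a black bar and the median of all tested genes (-0.05) as a dashed line. The members' median lies at -1.35, left of the medians of the 6 lists, which run from -0.92 to -0.42.

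The tested genes whose profile over the 5 libraries lay closest to that of ERRFI1, the most abundant member, were PEAR1, ADCY7 and DDI2. Their root mean square difference from it in centred log2 CPM was 0.07, 0.08 and 0.08. For AREG, the member with the largest log2 fold change, they were CALB2, OSCAR and LBH, at 0.37, 0.37 and 0.39, a wider gap from a gene with few reads. This likeness is over 5 libraries in 2 groups.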

How the data were processed

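RNA of SW620 cells was made into stranded poly(A) libraries (TruSeq Stranded mRNA), per the labels' protocols. The authors deposited raw counts per gene symbol, from reads aligned with STAR (2.5.2b, with CASAVA 1.8.2 also listed, per the submitters' processing notes). The build is hg19 in those notes and GRCh38 in the labels' protocols, so positions and lengths were taken from GENCODE 44 (GRCh38), with older symbols matched through name tables. A length was found for 97.5% of tested genes. How reads were counted, and whether by strand, is not given in the sources used here. Of 25435 rows, 92 spike-in rows, at 0 reads, were left out.

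Counts were tested in R 4.3.3 with edgeR 4.0.16 (filterByExpr with a minimum count of 10 and total of 15, TMM, glmQLFit, glmQLFTest, two-sided, Benjamini-Hochberg at 0.05) for pos against neg on all 5 libraries without a block. SE is the log2 fold change over the square root of F, and 95% intervals use the fit's degrees of freedom. CPM is TMM-normalised, RPKM divides it by the canonical transcript length, and log2 CPM had a prior count of 2. Exact Poisson intervals and the limit of 3 counts cover counting error only. Alternatives used DESeq2 1.42.0, limma 3.58.1, other scalings and filters, a replicate block, left-out libraries, other thresholds and removal of each library's lowess trend (span 0.3) of log2 CPM on length, as offsets. The edgeR step, tested on simulated data for pos against neg with 13604 genes, found 69 of 100 simulated 4-fold changes, 4 of 100 simulated 2-fold changes and 4 false ones. The simulated libraries held no length trend, unlike the real ones, so these counts do not cover calls that follow length.

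The members, pathway lists and alternatives were chosen with earlier results of these data known. Named were all members, the other receptors and ligands, the called genes of each list (up to 4 per direction, or the 2 smallest p where none was called) and, for the most abundant and most changed member, the 3 most alike genes of at least 5 CPM. A few genes that these rules would name are not reported here.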

Additional observations from a re-analysis of the deposited data

How the results depend on the processing

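The fall of ERRFI1 and HBEGF and the direction of the other members kept their sign in every alternative run, except that the log2 fold change of ERBB3 was -0.0759 with library size only. Counts of calls moved more. In the order all genes, members and pathway genes, the edgeR fit called 1251, 2 and 3, DESeq2 called 3037, 5 and 18, and removal of the length trend called 1912, 7 and 9. Library size only called 606 genes over all, and limma-voom 5 pathway genes. At an adjusted p of 0.01 the counts were 1, 0 and 0, and at 0.10 they were 3442, 5 and 19. Leaving out 1 library gave 0 to 8819, 0 to 6 and 0 to 62. The zeros came without any neg library, in edgeR, with 2510 to 3033 genes, 5 members and 10 to 14 pathway genes at an unadjusted p under 0.05. The high counts came without a pos library, where the lone pos library is assumed to vary like neg. With the length trend also removed, leaving out a pos library gave 5002 to 7237, 7 and 29 to 45. Replicate numbers were shared by the groups. Deviations of same-numbered libraries from their group means had an r across genes of -0.44 for replicate 1 and -0.45 for replicate 3. With only 2 pos libraries, each deviates as the mirror image of the other, so these values cannot show whether the numbers pair the libraries. With the replicate block 87 genes, 1 member (EREG) and 1 pathway gene were called, and with the block and the length trend removed 412, 4 and 3. The 4 members were ERRFI1, HBEGF, EREG and AREG. In that fit ERBB3, ERBB2 and TGFA missed the threshold (edgeR adjusted p = 0.327, 0.464 and 0.476). Scaling by DESeq2 size factors or upper quartile, no filter and a filter of 5 CPM kept the 2 members called. At this depth no difference was detectable for EPGN.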
